A study of Mus musculus with 6 samples.

Results

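The poly(A)-binding proteins and the cofactors that link them to miRNA-directed silencing were examined in whole embryonic kidneys. The set held 10 genes, chosen by symbol with earlier results of these arrays known: the poly(A)-binding protein genes *Pabpc1* and *Pabpc4*, their binding partners *Paip1* and *Paip2*, the GW182 genes *Tnrc6a*, *Tnrc6b* and *Tnrc6c*, and the CCR4-NOT genes *Cnot1*, *Cnot6* and *Cnot7*. They are 10 of 19057 genes named by a probe of the array and 10 of 10474 genes with a probe bright enough to be tested. The genotype contrast itself took part in choosing them, so their differences are given below as descriptions with a standard error or an interval from the fit. No p-value is given for any of them, and counts of them past a threshold stand only beside the share of all probes or genes.

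RNA was taken at E15.5, counted in embryonic days, from kidneys of FoxD1GC;Dicer fl/fl embryos, labelled FoxD1;Dicer, and from kidneys of their Cre-negative littermates, labelled Control. In the mutants an eGFP-Cre fusion expressed from the endogenous *Foxd1* locus recombines floxed *Dicer1* alleles, which carry the gene of the enzyme that cuts precursor miRNAs to their mature form, in the renal stroma and the cells that descend from it. Each of 3 litters gave 1 mutant and 1 control array, 6 Illumina MouseWG-6 arrays in all, and each array held RNA pooled from 2 embryos of one genotype. The strains differed, with the Cre line maintained on 129-Elite and the line with floxed *Dicer1* on C57BL/6J. The controls carried no Cre allele, so an effect of that allele or of the chromosome around it and an effect of *Dicer1* loss cannot be told apart here. The recombined cells are one part of a whole kidney, and a difference in RNA per cell cannot be told apart from a difference in the number of cells of a type.

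Cytoplasmic poly(A)-binding protein coats the tail of an mRNA and contacts the initiation factor eIF4G at the cap, an arrangement known as the closed loop. PAIP1 binds the poly(A)-binding protein and stimulates translation, whereas PAIP2 binds it and inhibits translation. In miRNA silencing, Argonaute loaded with a miRNA recruits a GW182 protein, which in turn contacts the poly(A)-binding protein and brings in the CCR4-NOT complex to shorten the tail.

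Bead signals were background corrected, quantile normalized and put on the log2 scale, and every level below is such a normalized log2 signal. Differences are FoxD1GC;Dicer fl/fl minus control on the log2 scale, fitted with litter as a block. Between 38.4% and 44.3% of probes were detected on the mutant arrays and between 37.5% and 44.7% on the control arrays, at a detection p-value under 0.05. Of 19 kidney markers, 13 had a tested probe and 12 of these were detected on all 6 arrays, while *Wt1*, *Pax2* and *Calb1* were among those without one. Of 9 adrenal and gonad markers 1 was tested, *Mc2r*, at a linear summed level of 54.4 to 74.8 in mutant and 27.1 to 43.0 in control kidneys, and the defining steroidogenic markers had no tested probe. The 3 tested of 9 sympathetic and neuronal markers summed to 118 to 157 in mutant and 160 to 170 in control kidneys, and 7 of 10 erythroid markers summed to 52874 to 60124 in mutant and 56755 to 60254 in control kidneys. The part of these cell types in the results was not tested. *Dicer1* is also transcribed in these whole kidneys by cells that kept it. Its probe of highest mean differed by -0.33 (standard error 0.21), and its other tested probes by -0.15 (standard error 0.23) and 0.09 (standard error 0.27). No source used here says whether its probes lie in the floxed part.

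The sex of the pools was uneven. *Xist*, the RNA of the inactive X chromosome, was at 4.54, 9.39 and 9.64 in the mutant pools of litters 1, 2 and 3, against 9.64, 4.57 and 4.61 in the control pools. Litter 1 therefore had its high pool among the controls and litters 2 and 3 among the mutants. The tested Y-linked genes *Eif2s3y*, *Kdm5d* and *Uty* were each detected on all 6 arrays, the pools of high *Xist* included. In litters 1, 2 and 3 *Eif2s3y* read 9.99, 8.89 and 8.02 in mutants, against 9.20, 9.94 and 10.06 in controls.

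The array annotation gave the 10 genes 31 probes. Of these, 22 were detected on at least 3 of the 6 arrays and were tested, 16 were detected on all 6, and each of the 10 genes had at least 1 tested probe. Of the 22 tested probes, 17 were higher and 5 lower in FoxD1GC;Dicer fl/fl kidneys, where 48.7% of all 18639 tested probes were higher. In 7 probes every mutant array lay above every control array, a share to be set beside 5.92% of all tested probes, and in 0 the reverse held, beside 7% of all. These 7 were single probes of *Paip1*, *Tnrc6b*, *Cnot1* and *Cnot7* and 3 probes of *Tnrc6a*. The *Tnrc6b* probe was detected on 3 mutant and 0 control arrays, so it was tested only through the group in which it was higher. With each gene read through its tested probe of highest mean, 6 of the 10 genes were higher and 4 lower, against 43.7% of all tested genes higher. The median over the 10 was 0.05 and that of all tested genes was -0.04.

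**Figure D1:**
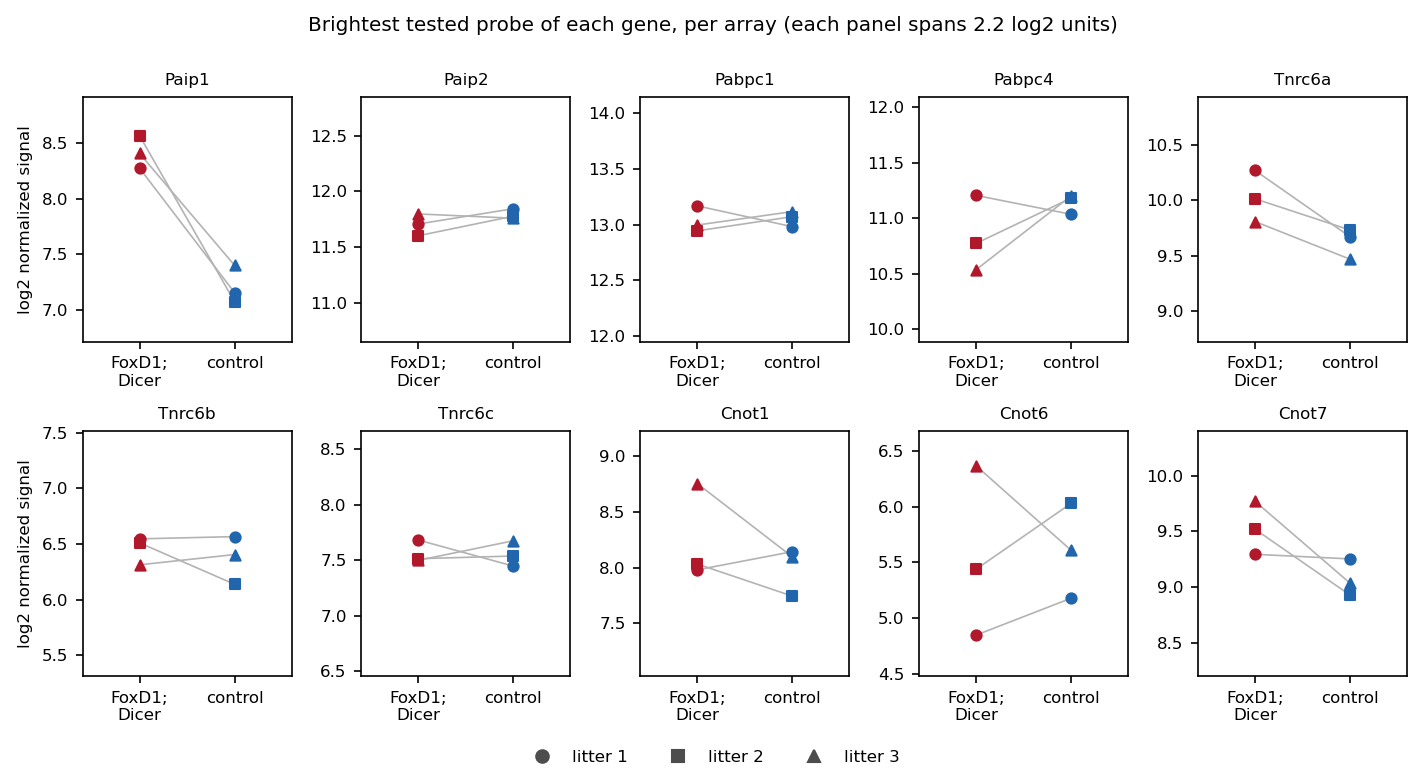
Normalized log2 signal (vertical axis, each panel spanning the same number of log2 units) of the tested probe of highest mean of each gene, with FoxD1GC;Dicer fl/fl arrays in red on the left and control arrays in blue on the right, and grey lines joining arrays of one litter. For *Paip1*, *Tnrc6a* and *Cnot7* the mutant points lie wholly above the control points, and for the other 7 genes the points of the groups overlap.

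*Paip1*, the gene of the stimulatory partner of the poly(A)-binding protein, stood farthest from its controls. Its probe ILMN_2752569 read 8.27, 8.57 and 8.41 in FoxD1GC;Dicer fl/fl kidneys of litters 1, 2 and 3, against 7.16, 7.07 and 7.40 in control kidneys. The groups did not overlap, and the gap between the lowest mutant and the highest control array was wider than the spread within either group. The means were 8.42 ± 0.15 in mutants and 7.21 ± 0.17 in controls (SD, n = 3 arrays each), a difference of 1.21 (standard error 0.21) or 2.31-fold. Within litters 1, 2 and 3 the difference was 1.12, 1.49 and 1.01. It was thus similar in litter 1, where *Xist* was lower in the mutant pool by 5.10, and in litters 2 and 3, where *Xist* was higher in it by 4.82 and 5.03, and with *Xist* as a covariate it was 1.19. Among the 10474 tested genes, 9 had a larger positive difference.

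The same separation was present in the deposited signals before any correction. Their values for *Paip1* were 441.8, 407.7 and 352.0 in mutant kidneys, against 244.5, 237.8 and 283.9 in control kidneys, a ratio of means of 1.57. Background beads add to both sides of this ratio, which therefore understates a fold change of a probe this dim. In the processed values that the authors deposited, the probe read 8.36, 8.54 and 8.47 in mutants, against 7.79, 7.77 and 7.90 in controls, and the difference was 0.64. The size of the *Paip1* difference thus depended on how background was treated, whereas its sign held in each of 14 other processing settings, with values between 0.64 and 1.38. Some of these settings, namely another litter block, another probe filter or an intensity trend, cannot move the difference, so their sign carries no information. The second *Paip1* probe, ILMN_3065748, was not detected on any of the 6 arrays and gives no second reading of the gene.

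**Figure D2:**
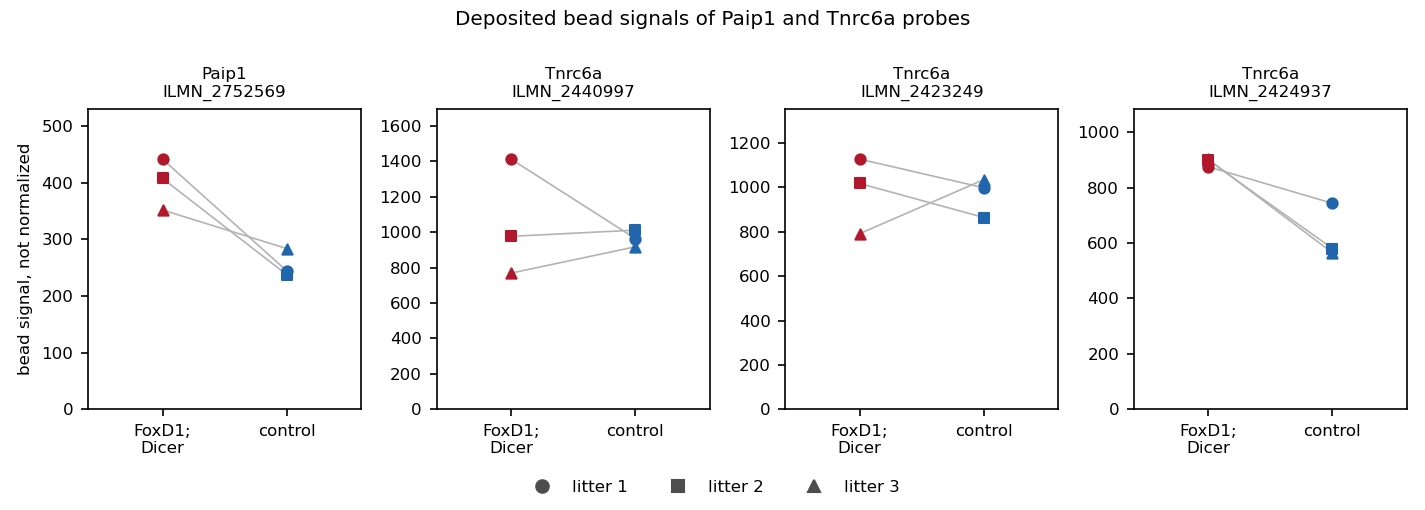
Deposited bead signal without background subtraction or normalization (vertical axis, linear from 0) for the *Paip1* probe and 3 *Tnrc6a* probes, with FoxD1GC;Dicer fl/fl arrays in red on the left, control arrays in blue on the right and grey lines joining litters. The *Paip1* signals of 352.0 to 441.8 in mutants lie above those of 237.8 to 283.9 in controls, as do those of the *Tnrc6a* probe ILMN_2424937, whereas those of the other *Tnrc6a* probes overlap.

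*Paip1* lies on chromosome 13, the chromosome that also carries *Foxd1* and with it the Cre allele. The sequence ahead of one of its annotated start sites is shown because it is the member with the largest difference. It is the 250 bases before a RefSeq transcript start on the plus strand of GRCm38.p6, chr13:119428350-119428599, and begins 19 bases inside the outer span of the gene record, which includes a transcript with an earlier start. It is given 5′ to 3′, with the match to GGGCGG, the core of a GC box, in capitals in its reverse-strand form CCGCCC:

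Paip1: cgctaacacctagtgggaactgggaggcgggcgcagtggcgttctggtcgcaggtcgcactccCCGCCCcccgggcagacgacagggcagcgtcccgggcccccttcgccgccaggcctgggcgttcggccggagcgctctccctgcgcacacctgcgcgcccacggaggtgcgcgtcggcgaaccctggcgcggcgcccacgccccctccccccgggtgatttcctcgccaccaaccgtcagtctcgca

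This window was 74.8% G or C and held 33 CpG dinucleotides, against medians of 52.4% and 6 over 32851 RefSeq promoter windows of the same length. Both strands of each window were also searched for the TATA box letters TATAAA. The third motif sought on both strands was CCAAT. No matches overlapped one another in the windows printed here. The 1 match in the *Paip1* window was GGGCGG, which 32.7% of all windows held, and no TATAAA (12.4% of windows) or CCAAT (33.8%) was found. A second annotated start of *Paip1* had a window with 82.8% G or C, 43 CpG and 4 GGGCGG matches.

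Genes near *Paip1* were read for comparison, since a stretch of chromosome inherited with the Cre allele would carry them too. In GRCm38.p6 *Foxd1* begins at -21.1 Mb relative to the start of *Paip1*, and *Foxd1* itself differed by -0.32 (standard error 0.20). Of 13 tested genes nearest to *Paip1*, 10 before it and 3 after it, 3 were higher and 10 lower in the mutants at the probe of highest mean, with a median of -0.18. The adjacent genes 4833420G17Rik and *Tmem267* differed by -0.20 (standard error 0.19) and 0.28 (standard error 0.24). Among the 13, *Zfp131*, a zinc finger gene 0.34 Mb after *Paip1*, was the 1 gene whose groups did not overlap at its probe of highest mean. It was lower in every mutant than in every control array, as were 8.23% of all tested genes. It read 9.68, 9.40 and 9.60 in mutants, against 10.06, 10.13 and 9.95 in controls, a difference of -0.48 (standard error 0.20). At that probe 0 of the 13 were higher in every mutant than in every control array, beside 5.1% of all tested genes, although a dimmer probe of *Nnt* was.

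*Nnt*, which encodes the mitochondrial nicotinamide nucleotide transhydrogenase, begins 0.09 Mb before *Paip1*. The C57BL/6J strain is known to carry a deletion within *Nnt*, and where the probes lie relative to that deletion was not checked. Its probe ILMN_1249303 read 5.39, 5.05 and 5.003 in mutant kidneys, against 4.54, 4.72 and 4.46 in control kidneys. It was detected on 3 mutant and 0 control arrays, so it was tested only through the group in which it was higher. Its deposited signals overlapped, at 111.8 to 144.6 in mutants and 103.9 to 120.2 in controls. After normalization the mutant level was at least 1.06-fold higher. That bound sets the mutant mean against the lowest level at which a probe was detected on each control array, and leaves out the spread between arrays. The probe of highest mean, ILMN_1226968, read 6.41, 5.05 and 4.81 in mutants, against 5.55, 4.85 and 5.05 in controls, and the other 6 *Nnt* probes were not detected on any array. That probe was thus brightest in both pools of litter 1. An effect of the strain of this region and an effect of genotype cannot be told apart in these arrays.

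**Figure D3:**
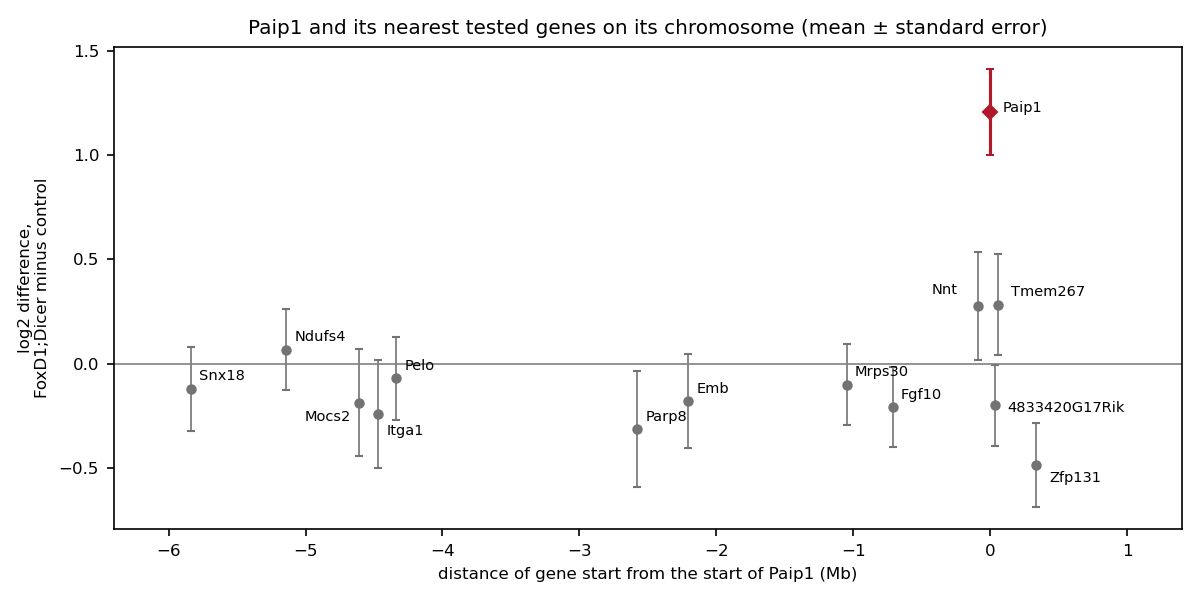
Log2 difference of FoxD1GC;Dicer fl/fl minus control (vertical axis, mean ± standard error of the fit, 3 arrays a group) of *Paip1* (red diamond) and the 13 tested genes nearest to it (grey), against the distance of each gene's start from that of *Paip1* in Mb. *Paip1* is at 1.21, and the others lie between -0.48 and 0.28.

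*Paip2*, the gene of the inhibitory partner, showed no such separation. It read 11.71, 11.60 and 11.80 in mutant kidneys, against 11.84, 11.78 and 11.76 in control kidneys. The groups overlapped, and the difference was -0.09 (standard error 0.19, 95% confidence interval -0.55 to 0.37). Under median scaling of the arrays in place of quantile normalization *Paip2* was at -0.42, a setting in which the median of all tested genes was -0.27.

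*Pabpc1*, the main cytoplasmic poly(A)-binding protein gene, had 3 tested probes. The one of highest mean, ILMN_1259482, read 13.17, 12.94 and 13.00 in mutants, against 12.98, 13.07 and 13.12 in controls. The groups overlapped, with a difference of -0.02 (standard error 0.20, 95% confidence interval -0.49 to 0.45). The dimmer probes ILMN_1259769 and ILMN_2705407 differed by 0.48 (standard error 0.34) and 0.45 (standard error 0.40). Both of those values came from litter 3, where they were 1.50 and 1.74, against -0.17 and 0.10 for the first and -0.28 and -0.11 for the second probe in litters 1 and 2. Without litter 3 they were -0.03 and -0.20. *Pabpc1* has near-identical processed copies in the genome, and which transcripts each probe binds was not checked, so its readings are uncertain in that respect.

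*Pabpc4*, the inducible cytoplasmic poly(A)-binding protein gene, was the lowest of the 10 by its probe of highest mean. This probe read 11.21, 10.77 and 10.54 in mutants, against 11.04, 11.18 and 11.20 in controls. Mutant arrays of litters 2 and 3 were below all controls and that of litter 1 was above them, so the groups overlapped and the difference was -0.30 (standard error 0.23). The second tested probe, of another transcript accession, gave 0.20 (standard error 0.31), with -0.65, 0.35 and 0.90 in litters 1, 2 and 3, an order opposite to that of the first. The remaining *Pabpc4* probe was detected on 1 mutant and 1 control array and was not tested.

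The *Pabpc4* promoter window is shown beside that of *Paip1* because the genes lay at the 2 ends of the range. It is chr4:123282661-123282910 on the plus strand of GRCm38.p6, from RefSeq, begins 358 bases inside the outer span of the gene, and has 1 TATAAA and 3 GGGCGG matches in capitals, the last of these in its reverse-strand form:

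Pabpc4: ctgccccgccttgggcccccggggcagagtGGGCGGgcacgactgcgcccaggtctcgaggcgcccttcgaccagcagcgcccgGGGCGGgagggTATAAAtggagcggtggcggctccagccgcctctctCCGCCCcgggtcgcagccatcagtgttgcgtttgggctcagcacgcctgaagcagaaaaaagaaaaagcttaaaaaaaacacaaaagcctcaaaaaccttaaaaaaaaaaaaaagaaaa

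It was 58.8% G or C with 19 CpG, held no CCAAT, and ended in an A-rich stretch whose longest run was 14 bases. The matches did not overlap, and a match is a match of letters and not a measured site.

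The GW182 genes encode the scaffold proteins that connect Argonaute to poly(A)-binding protein and to CCR4-NOT. Mutant arrays lay wholly above controls at 3 of 4 tested probes of *Tnrc6a*, 1 of 3 of *Tnrc6b* and 0 of 2 of *Tnrc6c*. Of all tested probes 5.92% lay so, and the *Tnrc6b* probe was detected on mutant arrays only. For *Tnrc6a* the probe of highest mean, ILMN_2440997, read 10.27, 10.01 and 9.81 in FoxD1GC;Dicer fl/fl kidneys, against 9.67, 9.73 and 9.47 in control kidneys, a difference of 0.41 (standard error 0.20). ILMN_2423249 read 9.90, 10.09 and 9.86 in mutants, against 9.73, 9.48 and 9.66 in controls, a difference of 0.32 (standard error 0.21). For ILMN_2424937 the levels were 9.48, 9.89 and 10.08 in mutants, against 9.24, 8.82 and 8.67 in controls, a difference of 0.91 (standard error 0.27) or 1.88-fold.

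All 3 of these probes were higher in the mutant in each litter and had groups that did not overlap. They were not equal in size, and ILMN_2424937 was smallest in litter 1, at 0.24, against 1.07 and 1.42 in litters 2 and 3. Litter 1 is the litter in which *Xist* ran the other way, and with *Xist* as a covariate that probe was at 0.75. The part of pool sex was not tested here either. The deposited signals of the first and second probe overlapped between the groups, at 768.7 to 1411.9 in mutants and 917.1 to 1011.3 in controls for the first, and at 791.5 to 1127.2 in mutants and 864.1 to 1034.9 in controls for the second. Those of ILMN_2424937, 875.0 to 902.6 in mutants and 564.4 to 743.2 in controls, did not. With arrays scaled to one median the probes were at 0.10, 0.02 and 0.61, above the -0.27 of all tested genes at that setting.

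Another *Tnrc6a* probe, ILMN_1257477, was near background and gave 0.15 (standard error 0.29), and ILMN_2464064 was not detected on any array. The RefSeq table held 1 window for *Tnrc6a*, chr7:123123635-123123884 on the plus strand of GRCm38.p6, which precedes an internal start and begins 92534 bases inside the outer span of the gene. It is shown because *Tnrc6a* had the most probes with groups apart, and has no capitals because none of the 3 motifs occurs in it:

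Tnrc6a: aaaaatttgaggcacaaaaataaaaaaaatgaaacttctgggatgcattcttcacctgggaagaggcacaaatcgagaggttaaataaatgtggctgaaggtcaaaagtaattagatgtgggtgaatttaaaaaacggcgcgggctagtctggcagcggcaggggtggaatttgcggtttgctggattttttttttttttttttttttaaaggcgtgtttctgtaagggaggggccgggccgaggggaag

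It was 42.4% G or C with 9 CpG. Windows were on hand for 6 of the 10 genes, and *Paip2*, *Pabpc1*, *Cnot1* and *Cnot7* had none.

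*Tnrc6b* and *Tnrc6c*, the paralogs, had overlapping groups at their probes of highest mean. That of *Tnrc6b* read 6.55, 6.51 and 6.31 in mutants, against 6.57, 6.14 and 6.41 in controls, a difference of 0.09 (standard error 0.21). For *Tnrc6c* the levels were 7.68, 7.51 and 7.50 in mutants, against 7.45, 7.54 and 7.67 in controls, and the difference was 0.01 (standard error 0.20, 95% confidence interval -0.47 to 0.49). A second *Tnrc6c* probe gave -0.01 (standard error 0.19), and both *Tnrc6c* probes thus lay within their spread. A dimmer *Tnrc6b* probe, ILMN_3035435, was detected on 3 mutant and 0 control arrays, at mean levels of 5.26 in mutants and 4.85 in controls. Only a bound can be given for the ratio of its mean levels, at least 1.14-fold in mutants, and that bound leaves out the spread between arrays. The 95% confidence interval of its fitted difference was -0.06 to 0.88. Its deposited signals overlapped, at 121.3 to 140.5 in mutants and 118.7 to 123.7 in controls. The remaining tested probe of the gene gave 0.15 (standard error 0.23). Whether *Tnrc6a* differed more than its paralogs was not tested.

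The CCR4-NOT complex removes adenosines from the tail, with CNOT1 as its scaffold and CNOT6 and CNOT7 as catalytic subunits of separate nuclease families. For *Cnot7* the probe of highest mean read 9.29, 9.52 and 9.77 in mutant kidneys, against 9.25, 8.93 and 9.03 in control kidneys. The groups did not overlap and the difference was 0.46 (standard error 0.22), but within litters 1, 2 and 3 it was 0.04, 0.59 and 0.74, so litter 1 contributed almost nothing to it. With *Xist* as a covariate it was 0.36, and with arrays scaled to one median 0.16. The deposited signals of this probe overlapped, at 713.9 to 781.6 in mutants and 616.2 to 750.6 in controls. A second *Cnot7* probe, near background, gave 0.06 (standard error 0.20).

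*Cnot1* had 3 tested probes that were unlike each other. ILMN_1217219 read 7.94, 7.68 and 7.89 in mutants, against 7.51, 7.30 and 7.42 in controls. Its groups did not overlap and its litters were even, at 0.44, 0.39 and 0.48, for a difference of 0.43 (standard error 0.19). ILMN_1222249, of slightly higher mean, gave 0.26 (standard error 0.23), with -0.16, 0.29 and 0.66 in litters 1, 2 and 3, and the dimmest gave 0.01 (standard error 0.21). The first of these probes kept its sign in each of 14 other settings, between 0.20 and 0.46, though some of these settings cannot move a difference. Its deposited signals overlapped, at 263.4 to 370.8 in mutants and 261.1 to 287.0 in controls, with a ratio of means of only 1.09.

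*Cnot6* had a single probe, which read 4.85, 5.44 and 6.37 in mutants, against 5.18, 6.03 and 5.61 in controls. It was detected on 2 mutant and 3 control arrays, its litters ran both ways, and the difference was -0.05 (standard error 0.30). These arrays therefore place little bound on *Cnot6*, with a 95% confidence interval of -0.75 to 0.65.

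**Figure D4:**
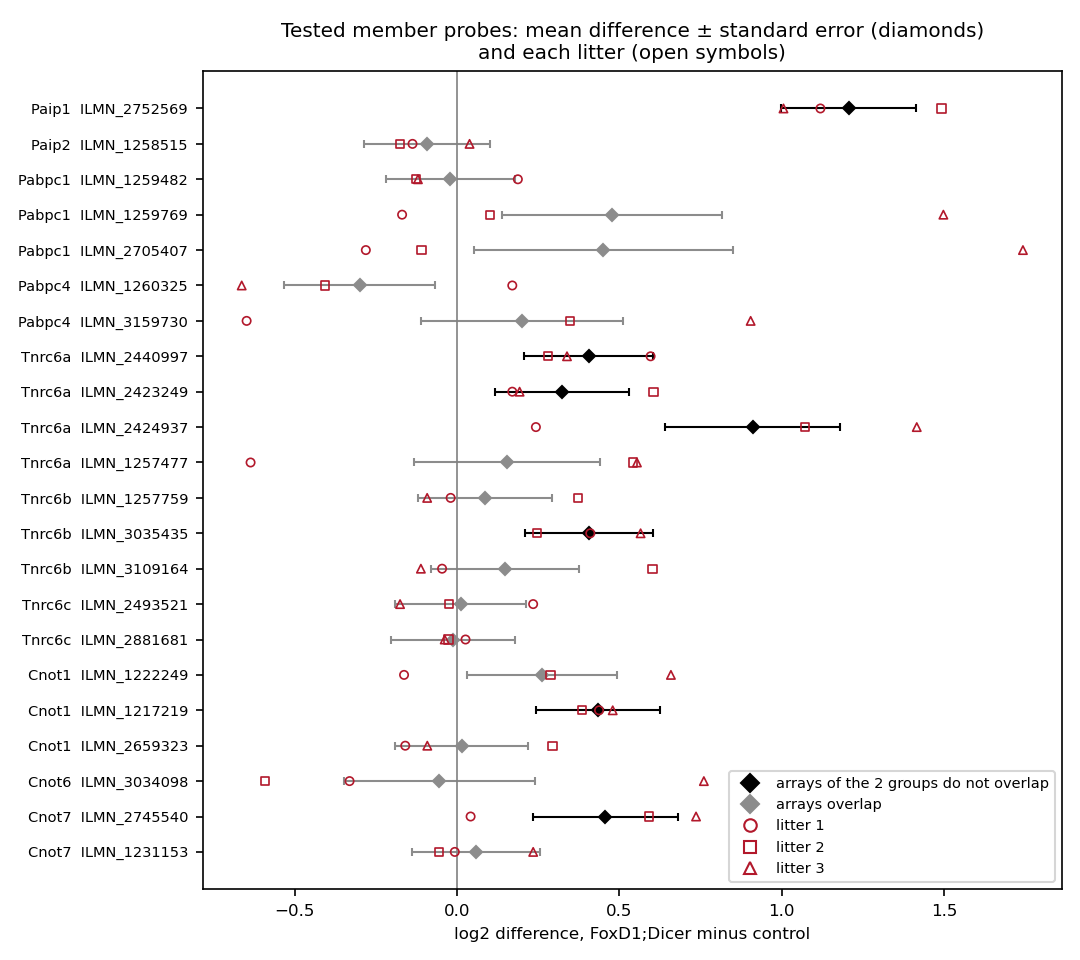
Log2 difference of FoxD1GC;Dicer fl/fl minus control (horizontal axis) for the 22 tested probes, as the mean ± standard error of the fit (diamonds, black where the 3 mutant and 3 control arrays do not overlap) and in each litter (open red symbols). The 7 black probes are all above 0, and the litters of most other probes fall on both sides of 0.

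Counted over all tests in limma, 0 of the 18639 tested probes reached a *B*-statistic above 0 and 0 reached an adjusted p under 0.05, while 1028 had an unadjusted p under 0.05, which is 5.52% of probes. Of the 22 tested probes of the 10 genes, 2 were among these, 1 of *Paip1* and 1 of *Tnrc6a* (ILMN_2424937), both higher, where 2.59% of all tested probes were higher and 2.92% lower at that level. By the probe of highest mean the count was 1 gene of 10, *Paip1*, beside 5.36% of all tested genes, 2.13% higher and 3.23% lower. Since the same contrast chose the genes, nothing is read from these shares. The study, which used lumi and limma with litter in the model, did report genes with *B* above 0 at E15.5. Its processing was not repeated here, and 0 tested probes reached that level with the authors' log2 values either.

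Within litters the median over the 10 genes was 0.11, 0.13 and 0.19 in litters 1, 2 and 3, against -0.01, -0.02 and -0.11 over all tested genes. *Pabpc1*, *Pabpc4* and *Tnrc6c* had tested probes of both signs, so the sign of these genes depended on the probe. When the tested probes of each gene were averaged the median over the 10 was 0.23, and with arrays scaled to one median it was -0.09, with 3 genes higher in place of 6.

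The wider machinery was read through 5 lists of 102 further genes, of which 79 were tested. Among the 79, 43 were higher and 36 lower in FoxD1GC;Dicer fl/fl kidneys, their median was 0.02, and 0 had an unadjusted p under 0.05 in limma, where 5.36% of all tested genes did. In 3 of the 79 the mutant arrays lay wholly above the controls and in 2 wholly below, beside 5.1% and 8.23% of all tested genes. No difference in these lists was as large as that of *Paip1*, the largest being 0.81 for *Larp1*, a poly(A)-associated translation regulator, of which litter 3 gave 1.99 and litters 1 and 2 gave -0.07 and 0.50.

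Other poly(A)-binding proteins and proteins that dock on them had 14 of 19 genes tested, 10 higher and 4 lower, with a median of 0.10. *Larp4b*, whose protein binds the tail-bound complex, was at 10.82, 10.95 and 11.01 in mutants, against 10.80, 10.64 and 10.70 in controls, a difference of 0.22 (standard error 0.20). Its arrays did not overlap, but only by a small margin in litter 1. The paralog of the inhibitory partner, *Paip2b*, was at -0.22 (standard error 0.21), with litters on both sides of 0, and was named after its value was seen.

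Other CCR4-NOT subunits, their adaptors and PAN2-PAN3, the second deadenylase, had 20 of 26 genes tested, 14 higher and 6 lower, with a median of 0.22. By litter this median was -0.05 in litter 1, 0.25 in litter 2 and 0.41 in litter 3, so litter 1 did not share it. *Pum2*, an RNA-binding adaptor that recruits the complex, read 8.79, 8.92 and 9.27 in mutants, against 8.73, 8.60 and 8.50 in controls, a difference of 0.38 (standard error 0.22) with groups that did not overlap. *Noct*, which encodes the CCR4-related protein nocturnin, differed by -0.24 (standard error 0.19) and was lower in each litter with overlapping groups.

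The decapping and 5′ decay genes, which act after the tail is gone, had 15 of 19 tested, 6 higher and 9 lower, with a median of -0.06. *Lsm4* and *Lsm5*, subunits of the ring that binds shortened tails, differed by -0.29 and -0.24 (standard error 0.20 each). Each was lower in every mutant than in every control array, at 11.62 to 11.79 in mutants and 11.94 to 12.07 in controls for *Lsm4*, and at 11.31 to 11.63 in mutants and 11.67 to 11.73 in controls for *Lsm5*.

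The cap-binding and initiation genes, which hold the other end of the closed loop, had 20 of 25 tested, 9 higher and 11 lower, with a median of -0.03. *Eif4g2*, an eIF4G relative, differed by 0.17 and *Eif3a*, a core subunit of eIF3, by 0.12, whereas the helicase cofactor *Eif4b* differed by -0.23 and *Eif3k* by -0.06, each with a standard error of 0.19 to 0.20. Of these 4 genes, *Eif4b* alone differed by more than its standard error.

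The Argonautes and partners of GW182 had 10 of 13 genes tested, 4 higher and 6 lower, with a median of -0.06. *Ago2*, the Argonaute that can cut its targets, differed by 0.25 (standard error 0.20) and was higher in each litter, at 8.21, 8.14 and 8.44 in mutants, against 8.18, 7.89 and 7.98 in controls, with groups that overlapped. *Fmr1*, the fragile X gene whose RNA-binding protein acts with Argonaute, differed by -0.26 (standard error 0.20). With arrays scaled to one median *Larp4b*, *Eif4g2*, *Eif3a* and *Ago2* turned to -0.11, -0.16, -0.21 and -0.02, all above the median of all tested genes at that setting.

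**Figure D5:**
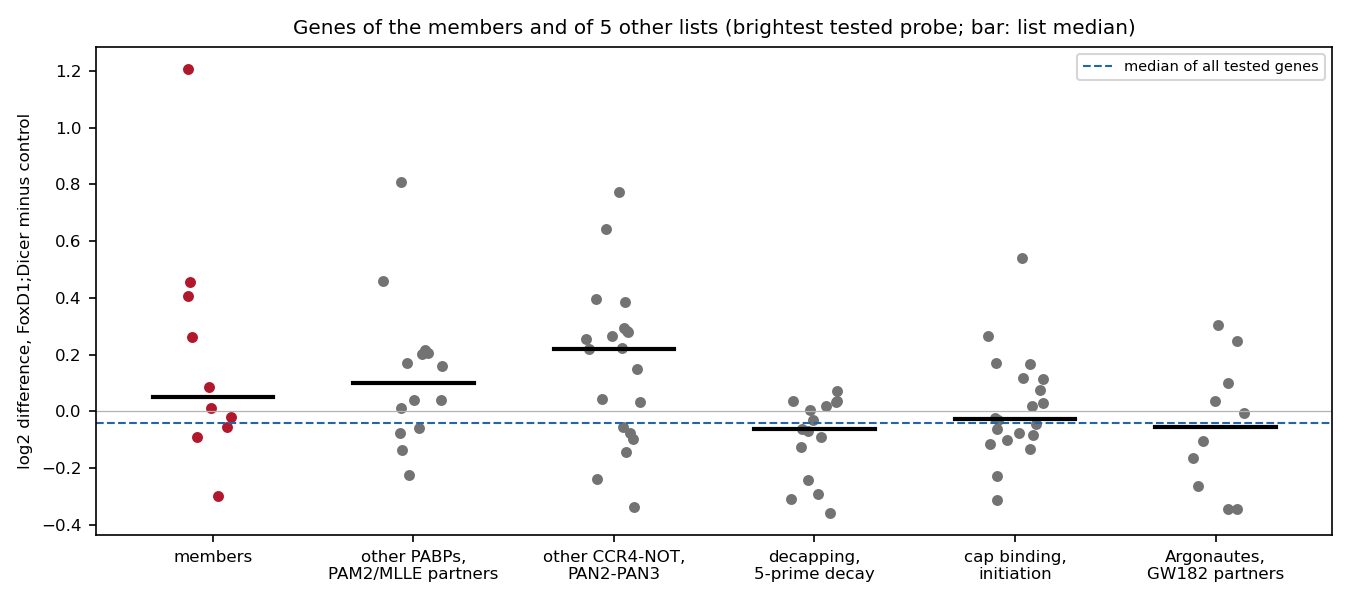
Log2 difference of FoxD1GC;Dicer fl/fl minus control (vertical axis) of each tested gene, read through its probe of highest mean, for the 10 genes described here (red) and 5 lists of related genes (grey), with bars at the list medians and a dashed line at the median of all tested genes, -0.04. *Paip1* at 1.21 lies above every gene of the other lists, and the list medians lie between -0.06 and 0.22.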

How the data were processed

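Whole-kidney RNA from 3 litters at E15.5 was measured on 6 Illumina arrays, 3 per genotype, each of RNA pooled from 2 embryos. The intensity values the authors deposited are average bead signals without background subtraction or normalization, and which scanner software made them is not stated in the sources used here. The detection p-value deposited with each signal sets it against beads of negative controls. Processed log2 values were deposited too. The study names lumi and limma, but their transformation is not stated, and their probes ranked as the signals did on every array.

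From the signals, neqc in limma 3.58.1 (R 4.3.3) corrected background from the detection p-values (normexp, offset 16), quantile normalized and took log2. Of 45281 entries, 45277 were usable and 34881 had 1 gene in the platform annotation, while 18 had several and 10378 are unnamed here. The 18639 probes detected at p under 0.05 on at least 3 arrays were fitted with litter and genotype (lmFit and eBayes, prior 0.01), and the median standard error was 0.22. The number of arrays limits the precision. A gene was read through its tested probe of highest mean. The procedure was tested on simulated data. Promoter windows and gene order came from RefSeq tables of GRCm38.p6 and were matched by symbol.

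Genotype and litter came from the sample labels. Litter numbers mark shared litters, as the labels and methods say, so litter was a block. Deviations of the mutant and control array of litters 1, 2 and 3 correlated at -0.29, -0.02 and -0.12 across probes.

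The 10 genes and all lists were chosen with earlier results of these data known. Named by rule were every member with all its tested probes, *Foxd1*, *Dicer1*, *Nnt*, *Xist*, the tested Y-linked genes and up to 10 tested genes on each side of *Paip1*. The rule also named, per list, up to 2 genes of largest positive and 2 of largest negative difference among those with one direction in all litters. Of the untested member probes only some are described. *Larp1* and *Paip2b* were added after their values were seen. Up to 10 genes were sought on each side, and 3 were found after *Paip1*, near the end of the chromosome. Alternatives were no litter block, a random block, the authors' log2 values, no background correction, an offset of 50, median scaling, array weights, an intensity trend, no or a strict probe filter (p under 0.01 on each of 6 arrays), *Xist* as a covariate, other probe summaries and each litter left out.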

Additional observations from a re-analysis of the deposited data

How the results depend on the processing

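*Paip1* was higher in FoxD1GC;Dicer fl/fl kidneys at all 14 other settings, at 0.64 with the authors' log2 values and 0.85 with no background correction, and between 1.06 and 1.31 with a litter left out. Its other, undetected probe gave -0.066. Its difference was also 1.21 without the litter block, with a random block, with no or a strict probe filter and with an intensity trend, settings that cannot move it. The 1 member gene at an unadjusted p under 0.05 in limma became 2 with no replicate block, median scaling, no probe filter, *Xist* as a covariate or any tested probe of a gene counted, and 3 with the authors' log2 values, no background correction, an offset of 50, an intensity trend or array weights. With a litter left out the count was 1 to 3. Of all 18639 tested probes, 1028 (5.52%) were at that level in the main fit. The count was 961 with the authors' log2 values, 1001 with no background correction, 1019 with an offset of 50 and 1024 with an intensity trend. It was 1863 with median scaling, 5851 with array weights, 1730 with *Xist* as a covariate and 1412 without the litter block. With no probe filter it was 2396, of 45277 probes. With a litter left out it was 3923 without litter 1, 572 without litter 2 and 551 without litter 3. The median over the members, 0.05, was -0.086 with median scaling, 0.12 with array weights, 0.23 with all tested probes of a gene averaged and 0.084 to 0.12 with a litter left out. Probes at *B* above 0 numbered 0 in the main fit, 34 without the litter block and 10 with a random block. With litter kept as a block they numbered 18 with an intensity trend, 117 with median scaling and 249 with array weights. They numbered 5 with no background correction, 3 with an offset of 50, 12 with *Xist* as a covariate and 0 to 35 with a litter left out. *Paip1* was among those 34 and those 249. The causes of these shifts were not tested. Of 498 values of 37 named genes under other settings, 474 kept their sign, a count that includes the settings that cannot move a difference. Dim probes are limited by signal over background, and the 95th percentile of signal was 9.46, 7.90 and 7.91 times the median of undetected probes on the mutant arrays of litters 1, 2 and 3, against 9.84, 9.45 and 10.5 times on the control arrays.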
